A study of Homo sapiens with 6 samples.

Results

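DNA replication genes encode the proteins that license origins, unwind and copy DNA, and supply its nucleotides. A set of 37 of them was taken by gene symbol from a table of 60675 gene IDs, and each of the 37 matched 1 row. The cells were HCT116, an established human colon cancer line, stably expressing either wild-type PHF5A (WT, 3 libraries) or PHF5A with glutamine in place of lysine 29 (K29Q, 3 libraries), and no other allele, agent or time is given. PHF5A belongs to SF3B, the splicing complex that binds near the branch point of introns, and glutamine often serves as a stand-in for acetylated lysine. The title of the study names stress responses, colorectal carcinogenesis and alternative splicing of KDM3A, so replication genes are measured here as part of the wider comparison of K29Q with WT. The endogenous PHF5A gene is not stated to have been removed. Whether a group is 1 clone, a pool or several lines, and whether its 3 libraries are separate cultures, is not given in the sources used here, so the p-values reflect library-to-library spread alone, which may be technical.

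In G1 the origin recognition complex, CDC6 and CDT1 load the MCM2 to MCM7 ring onto origins. On entry into S phase, which cyclin E with CDK2 promotes, CDC45 and the GINS complex join the ring to form the active helicase. Polymerase alpha with primase then lays down primers, the RFC clamp loader places the PCNA ring on them, polymerases delta and epsilon extend them, RPA coats exposed single strands, and FEN1 and DNA ligase 1 finish the lagging strand. Thymidylate synthase and ribonucleotide reductase supply the deoxynucleotides. Many of these genes are transcribed at the start of S phase under E2F transcription factors, which the RB family holds back, and fast-growing cancer lines such as HCT116 express them at high levels.

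Because E2F sites are the textbook shared feature of these promoters, the RefSeq promoter windows (GRCh38.p14, 250 bases before to 50 after each start) were searched for TTTCCCGC, TTTCGCGC, TTTGCCGC and TTTGGCGC on both strands. A window was found for 32 of the 37 genes; MCM4, MCM5, RPA2, RPA3 and CCNE2 had none by symbol. At least 1 match lay in a window of 16 of the 32 (50%), against 6.78% of the 8835 tested genes with a window, 3.99% of all 27305 genes with a window and 2 of 20 mitosis genes. Some of the matches overlap each other, as in MCM6, which had 4. CCAAT, the letters bound by NF-Y, was found on either strand in 59.4% of the 32, 43.2% of tested genes and 39.7% of all genes, and TTTGAA, the core letters of the element of G2 and M phase genes, in 1 of the 32 (RRM1), 12.7% of tested genes, 18.2% of all genes and 15 of the 20 mitosis genes. The 3 genes of the set with the smallest p in the comparison of K29Q with WT among those with a window are shown by the 250 bases before their start, 5′ to 3′ on the gene's strand, with matches to the E2F letters in capitals. RFC1 (chr4:39366363-39366612, minus strand) and POLA1 (chrX:24693668-24693917, plus strand) had higher values in K29Q, and CDT1 (chr16:88803539-88803788, plus strand) lower ones. The starts are those of RefSeq and differ from the GENCODE 29 gene coordinates given below. The CDT1 stretch lies inside the GENCODE gene, which begins at 88803213, and the RFC1 stretch reaches into its gene.
RFC1: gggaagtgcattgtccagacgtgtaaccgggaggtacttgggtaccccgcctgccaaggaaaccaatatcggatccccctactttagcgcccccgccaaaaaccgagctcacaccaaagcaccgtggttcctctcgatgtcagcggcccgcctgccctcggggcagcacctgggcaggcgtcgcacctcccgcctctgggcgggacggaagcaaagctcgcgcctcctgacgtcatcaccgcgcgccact
CDT1: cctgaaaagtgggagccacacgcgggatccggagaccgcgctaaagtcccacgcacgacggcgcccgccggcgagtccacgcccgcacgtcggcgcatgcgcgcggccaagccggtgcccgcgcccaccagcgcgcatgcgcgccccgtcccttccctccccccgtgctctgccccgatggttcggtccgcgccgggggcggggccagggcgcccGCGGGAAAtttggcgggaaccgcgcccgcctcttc
POLA1: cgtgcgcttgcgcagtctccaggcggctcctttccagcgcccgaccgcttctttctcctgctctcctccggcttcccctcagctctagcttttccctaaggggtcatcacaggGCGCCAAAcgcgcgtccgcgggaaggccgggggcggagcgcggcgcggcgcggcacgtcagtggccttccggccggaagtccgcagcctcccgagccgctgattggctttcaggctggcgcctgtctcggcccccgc
The RFC1 stretch held 0 matches, and the CDT1 and POLA1 stretches held 1 each, starting 35 and 137 bases before the start. These letters did not separate the genes by their difference between K29Q and WT: the median log2 difference was −0.06 for the 16 genes with a match and −0.09 for the 16 without.

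The 6 libraries had estimated depths of 33600000 to 40000000 fragments. PHF5A itself had 32.4, 34.4 and 32.7 FPKM in WT 1 to 3 and 41.4, 45.9 and 45.0 in K29Q 1 to 3. Its total would add endogenous and introduced transcripts if both are present, and gene totals do not separate mutant from wild-type transcripts. The level of PHF5A differed together with its allele, and their parts cannot be told apart here. On principal component 1 of all genes tested (34.1% of the variance) WT 1 grouped with K29Q, at −4.72 against 13.2 and 18.0 for WT 2 and 3 and −14.9 to −4.76 for K29Q. Epithelial markers were present as the cell line's label implies (KRT8, KRT18, KRT19, EPCAM and CDH1), and 7 of the 10 listed had a mean FPKM of at least 1. The 10 summed to 1249 to 1409 FPKM in WT and 1147 to 1201 in K29Q. Of the intestinal genes among them, CDX2 was expressed, at 3.27 FPKM on average. VIL1, CDX1 and LGALS4 were at 0.0726, 0.00907 and 0.0480 FPKM on average. Fibroblast markers summed to 4.52 to 5.39 FPKM in WT and 4.68 to 6.07 in K29Q, nearly all from COL1A1, with DCN and LUM listed at 0 in all libraries. Endothelial markers summed to 0.327 to 0.379 and 0.250 to 0.346, and leukocyte markers to 2.29 to 3.02 and 2.50 to 2.94, with PTPRC at 0.000755 on average. In bulk samples fewer cells in S phase and less RNA per cell cannot be told apart.

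All 37 genes were expressed, with mean FPKM (fragments scaled by transcript length and library size, a level per length that can be compared between genes) from 2.29 for CCNE2 to 146 for PCNA and a median of 13.2, against 5.20 over all genes tested. PCNA, the sliding clamp, stood alone at the top, followed by the helicase subunits MCM7 (76.1) and MCM3, the flap nuclease FEN1 (52.0) and thymidylate synthase TYMS (43.9). The GINS3 subunit, the cyclin CCNE2, and the polymerase alpha subunits POLA1 and POLA2 were at the bottom with ORC6. The order of levels by role was far wider than any difference between K29Q and WT: the ratio of group means lay between 0.826 (RFC2) and 1.25 (RFC1), and within 10% of 1 for 27 of the 37.

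**Figure D1:**
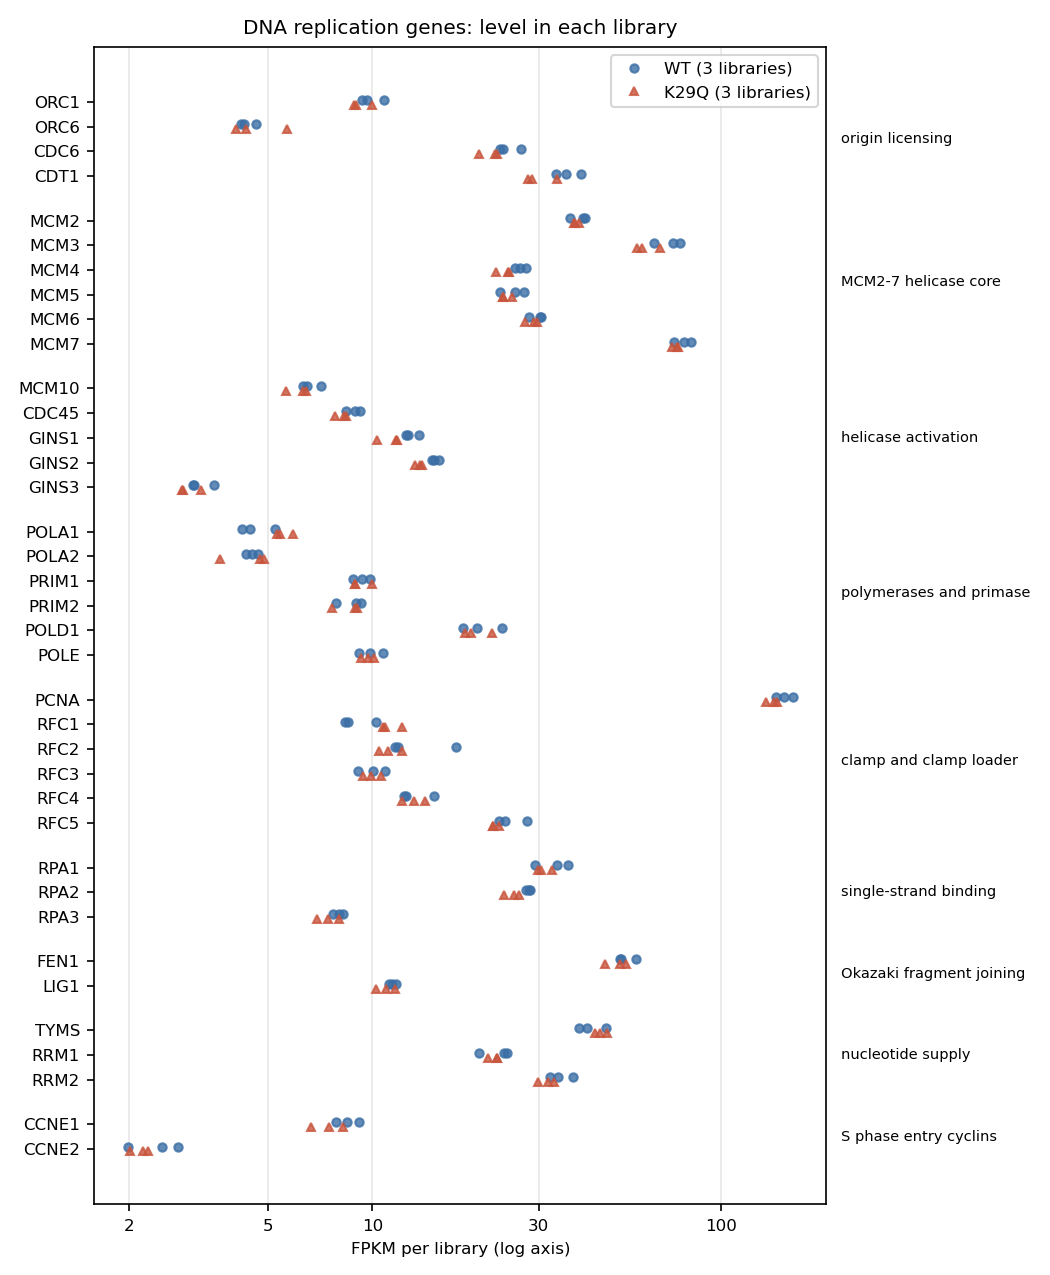
FPKM on a log axis for each of the 37 DNA replication genes, by role, with 1 circle per WT library and 1 triangle per K29Q library. Levels run from about 2 FPKM for CCNE2 to 135 to 161 for PCNA, and the K29Q triangles sit at or slightly left of the WT circles for most genes, with RFC1 and POLA1 to the right.

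Most of the 37 genes of the set, which was chosen with earlier results of these data known, were slightly lower in K29Q. No single gene of the set passed the test. Of the 37, 33 had a log2 difference below 0, where 49% of the 13261 genes tested did. Their median difference was −0.08 on the log2(FPKM + 1) scale, against 0.003 over all genes tested, and their median ratio of means was 0.935. At an adjusted p of 0.05 (limma, Benjamini-Hochberg over 13261 genes) 0 of the 37 passed, beside a background of 0.0528% (7 genes, 4 higher and 3 lower; 9 higher and 4 lower with quantile normalization), and the smallest adjusted p was 0.362. At an unadjusted p under 0.05, 5 of the 37 were lower (CDT1, MCM3, GINS1, GINS2 and RPA2), beside a background of 4.89%, and 2 were higher (RFC1 and POLA1), beside 7.65%. The values of the K29Q libraries lay wholly below those of WT for 7 genes (CDC6, MCM4, CDC45, GINS1, GINS2, RFC5 and RPA2), beside a background of 9%, and wholly above for RFC1 and POLA1, beside 8.8%. Both shares for higher values were under the background and both shares for lower values above it, and no list test was made.

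The 95% confidence interval of the log2 difference (limma, for each gene on its own and not adjusted over genes) had a median half-width of 0.184 and stayed within 0.5 in either direction for 35 of the 37 genes. The exceptions were RFC2, with an interval of −0.59 to 0.12, and RFC1, with one of 0.08 to 0.51. It stayed within 0.3 for 23 genes and ran past it for the others, CDT1 among them. These intervals do not give the size that the adjusted test could detect: the differences of RFC1 and CDT1, at 0.29 and −0.27, did not pass it.

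**Figure D2:**
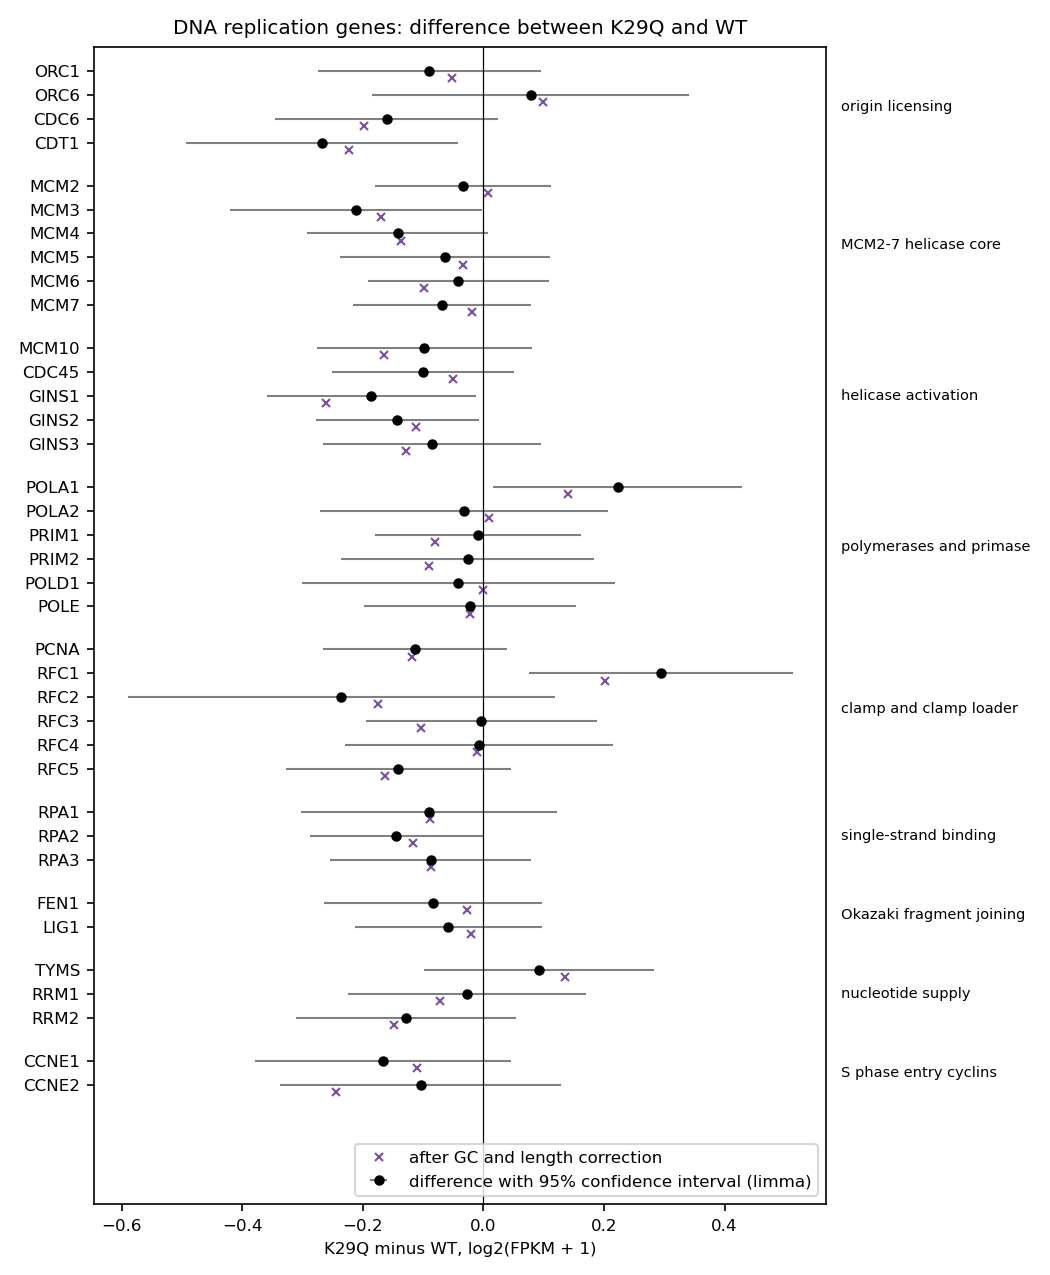
Log2 difference between K29Q and WT on the log2(FPKM + 1) scale for each DNA replication gene, as black points with 95% confidence intervals from limma, and after correction of each library for GC content and length (crosses). Points lie left of 0 for 33 of 37 genes, and 7 intervals leave out 0: CDT1, MCM3, GINS1, GINS2 and RPA2 on the left, POLA1 and RFC1 on the right.

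Each column header carried 1 of 2 codes that the labels do not explain, and from their form these codes were taken to name flow cells, called A and B here. Flow cell A held K29Q 1, K29Q 2 and WT 2, and flow cell B held K29Q 3, WT 1 and WT 3. Within flow cell A 31 of the 37 genes were below 0, with a median log2 difference of −0.13, and within flow cell B 26 were, with a median of −0.06. The medians over all genes tested were 0.01 in each, and 47.8% (A) and 47.5% (B) of all genes were below 0. WT 2 was the highest of the 6 libraries for 16 of the 37 genes and K29Q 1 the lowest for 18, and both were in flow cell A. Over all 13261 genes tested, WT 2 was the highest for 2386 and K29Q 1 the lowest for 2051.

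The counts at the unadjusted p changed with single libraries, with a flow cell term, and with GC content and transcript length removed together. Without WT 1, the library that lay beside K29Q, 29 genes were below 0 with a median of −0.09, and 2 were lower and 2 higher at an unadjusted p under 0.05 (limma, backgrounds of 6.07% and 14.4%). Without K29Q 3, 33 were below 0 and 0 passed in either direction (backgrounds of 2.99% and 3.54%). With library trends on transcript GC content and length removed, 31 were below 0 with a median of −0.09, and 12 were lower and 3 higher (backgrounds of 7.93% and 7.28%), and the parts of GC content and of length were not separated. With the flow cell of each library as a term, 30 were below 0, and 2 were lower and 2 higher (backgrounds of 3.84% and 8.91%). Over all genes tested, 49.2%, 49.7%, 51.5% and 48.8% were below 0 in these settings, in the order given.

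**Figure D3:**
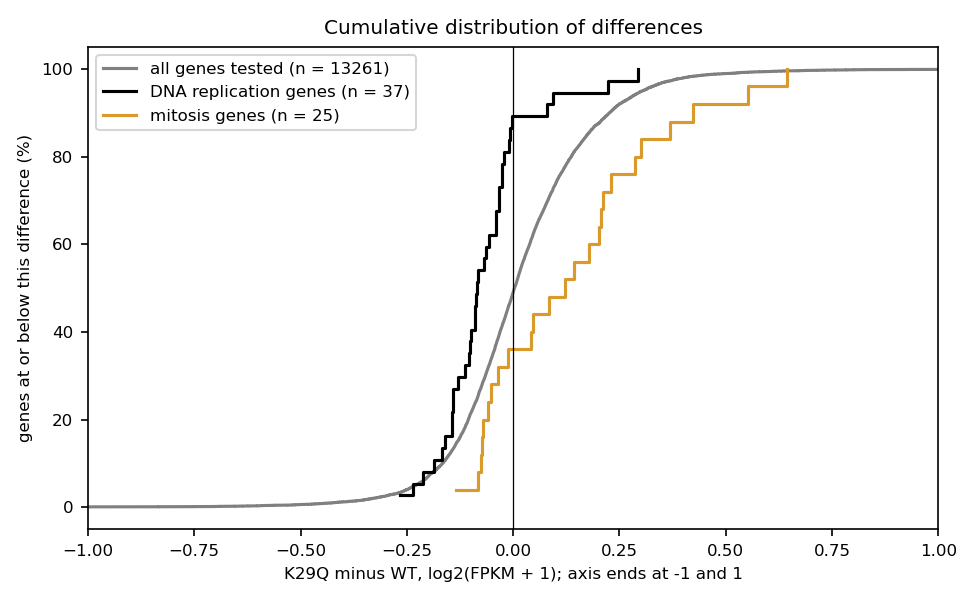
Cumulative share of genes (%) at or below each log2 difference between K29Q and WT, for all 13261 genes tested (grey), the 37 DNA replication genes (black) and 25 mitosis genes (orange). At 0 the black curve has reached 33 of 37 genes, the grey curve 49%, and the orange curve 9 of 25.

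Origin licensing genes held the lowest difference of the set. CDT1, which helps CDC6 load the MCM ring (ENSG00000167513, chromosome 16 from 88803213 to 88809258, plus strand), had 33.7, 36.0 and 39.7 FPKM in WT 1 to 3 and 33.8, 27.9 and 28.8 in K29Q 1 to 3. K29Q 2 and 3 were below every WT library, and K29Q 1 was level with WT 1. The group means were 36.5 ± 3.02 and 30.2 ± 3.19 (SD, n = 3 each), their ratio was 0.827 and the log2 difference −0.27 (SE 0.0954, limma, adjusted p = 0.38), with −0.22 in flow cell A and −0.33 in flow cell B. CDC6, the ATPase that recruits the ring (chromosome 17 from 40287633 to 40304657), had 23.7, 26.6 and 23.3 FPKM in WT and 20.3, 22.4 and 22.8 in K29Q. Its groups did not overlap, but the nearest libraries, WT 3 and K29Q 3, were 23.3 and 22.8, and the log2 difference of −0.16 had an adjusted p of 0.44 (limma). ORC6, the smallest origin recognition subunit, had 4.19, 4.62 and 4.27 FPKM in WT and 5.68, 4.35 and 4.07 in K29Q. Its log2 difference of 0.08 rested on K29Q 1 and was −0.04 without that library. ORC1, which binds CDC6 at the origin, had 9.92 ± 0.768 and 9.26 ± 0.609 FPKM (SD, n = 3 each), with overlapping groups.

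The 6 subunits of the MCM ring were all below 0, by small amounts (log2 differences of −0.21 to −0.03), where 49% of all genes tested were. By limma 0 of 6 passed an adjusted p of 0.05. At an unadjusted p under 0.05, 1 was lower, beside 4.89% of all genes tested. MCM3 (chromosome 6 from 52264009 to 52284881) had 72.7, 64.5 and 76.2 FPKM in WT and 66.9, 59.6 and 57.4 in K29Q. K29Q 2 and 3 were below all WT libraries and K29Q 1 was above WT 2. The log2 difference was −0.21 (SE 0.0883, limma, adjusted p = 0.396), but −0.03 in flow cell A and −0.37 in flow cell B. MCM4 had 25.6, 27.6 and 26.5 FPKM in WT and 22.6, 24.7 and 24.6 in K29Q, so each K29Q library was below each WT library, with a ratio of 0.903. MCM7, the subunit with the highest level, had 73.2, 78.6 and 82.0 FPKM in WT and 75.4, 74.8 and 72.4 in K29Q, which overlapped. MCM2, MCM5 and MCM6 had ratios of 0.954 to 0.975 with overlapping groups. Although the 6 proteins form a ring with 1 copy of each, their RNA levels fell into 2 ranges, with MCM3 and MCM7 at 57.4 FPKM or more and the other 4 at 40.8 FPKM or less in every library.

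The genes that turn the ring into an active helicase were also all below 0 (5 of 5, log2 differences of −0.19 to −0.08), where 49% of all genes tested were. By limma 0 passed an adjusted p of 0.05. At an unadjusted p under 0.05, 2 were lower, beside 4.89% of all genes tested. GINS1 (chromosome 20 from 25407727 to 25452628) had 12.6, 13.6 and 12.4 FPKM in WT and 10.3, 11.7 and 11.6 in K29Q. GINS2 (chromosome 16 from 85676198 to 85690073) had 14.8, 15.6 and 15.0 FPKM in WT and 13.2, 13.9 and 13.7 in K29Q. Both GINS subunits were lower in every K29Q library than in any WT library. The log2 differences were −0.19 (SE 0.0736, limma, adjusted p = 0.391) for GINS1 and −0.14 (SE 0.057, adjusted p = 0.392) for GINS2, and after correction for GC content and length −0.26 and −0.11. GINS3, at a far lower level, had 3.22 ± 0.259 and 2.98 ± 0.211 FPKM, and its ratio to the mean of the other 2 subunits was 0.230 ± 0.0103 for WT and 0.240 ± 0.0129 for K29Q libraries (SD, n = 3 each). CDC45, the third partner of the active helicase, had 8.83 ± 0.415 and 8.17 ± 0.302 FPKM, with groups that only just did not overlap (WT 2 and K29Q 3 were both at 8.38). MCM10, which helps start unwinding, had 6.65 ± 0.423 and 6.15 ± 0.435 FPKM.

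Polymerase and primase genes lay close to 0 (median log2 difference −0.02), apart from POLA1. POLA1, the catalytic subunit of polymerase alpha (ENSG00000101868, chromosome X from 24693919 to 24996986, plus strand), had 5.26, 4.45 and 4.21 FPKM in WT and 5.33, 5.44 and 5.93 in K29Q. All 3 K29Q libraries were above WT, with WT 1 just below K29Q 1. The WT and K29Q means were 4.64 ± 0.552 and 5.57 ± 0.322 (SD, n = 3 each), their ratio was 1.2 and the log2 difference 0.22 (SE 0.0874, limma, adjusted p = 0.389). The other 3 subunits of the same complex, POLA2 and the primases PRIM1 and PRIM2, had ratios of 0.979 to 0.993. POLD1, the catalytic subunit of polymerase delta and the highest of the group, had 18.2, 20.0 and 23.5 FPKM in WT and 22.1, 18.4 and 19.2 in K29Q, with the groups interleaved and an interval of −0.30 to 0.22 for the log2 difference. POLE, the catalytic subunit of polymerase epsilon, had 9.88 ± 0.793 and 9.70 ± 0.407 FPKM.

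The clamp loader showed the same split between its large subunit and the rest. RFC1, the large subunit that makes RFC a PCNA loader (ENSG00000035928, chromosome 4 from 39287456 to 39366375, minus strand), had 10.2, 8.48 and 8.32 FPKM in WT and 10.8, 10.9 and 12.1 in K29Q. Every K29Q library was above every WT library, with WT 1 again the nearest. The means were 9.02 ± 1.07 and 11.3 ± 0.757 (SD, n = 3 each), their ratio was 1.25 and the log2 difference 0.29 (SE 0.0926, limma, adjusted p = 0.362), the highest of the set. The flow cells gave 0.32 (A) and 0.36 (B). The small subunits RFC2 to RFC5, which RFC shares with the alternative loaders, had ratios of 0.826 to 0.996, and only RFC5 had groups that did not overlap. The low ratio of RFC2 came with 1 high library, WT 2 at 17.3 FPKM, while the other 5 libraries had 10.4 to 12.1, and without WT 2 the log2 difference went from −0.24 to −0.06. PCNA (chromosome 20 from 5114953 to 5126626) had 151, 161 and 144 FPKM in WT and 135, 145 and 142 in K29Q, which overlapped between WT 3 and K29Q 2, with a log2 difference of −0.11 (SE 0.0643, limma, adjusted p = 0.498).

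Within a library the balance of subunits can be read without reference to depth. The ratio of RFC1 to the mean of RFC2 to RFC5 was 0.667, 0.502 and 0.591 in WT 1 to 3 and 0.795, 0.747 and 0.836 in K29Q 1 to 3. The ratio of POLA1 to the mean of POLA2, PRIM1 and PRIM2 was 0.689, 0.572 and 0.591 in WT and 0.791, 0.718 and 0.751 in K29Q. In both complexes each K29Q library was above each WT library. These ratios were chosen after the values were seen and were not tested. RFC1 and POLA1 have long transcripts of low GC content (4886 nt and 41.7%, and 5486 nt and 42.9%, for the longest transcript, against medians of 3202 nt and 48.1% in the set), and over all 13108 genes with a sequence the difference between K29Q and WT went with GC content (Spearman −0.425) and length (0.223), across genes that are not independent. Within the 37 genes of the set the same correlations were weaker, at −0.199 and 0.065. With each library's trend over all genes removed, RFC1 was at 0.20 and POLA1 at 0.14 on the log2 scale.

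**Figure D4:**
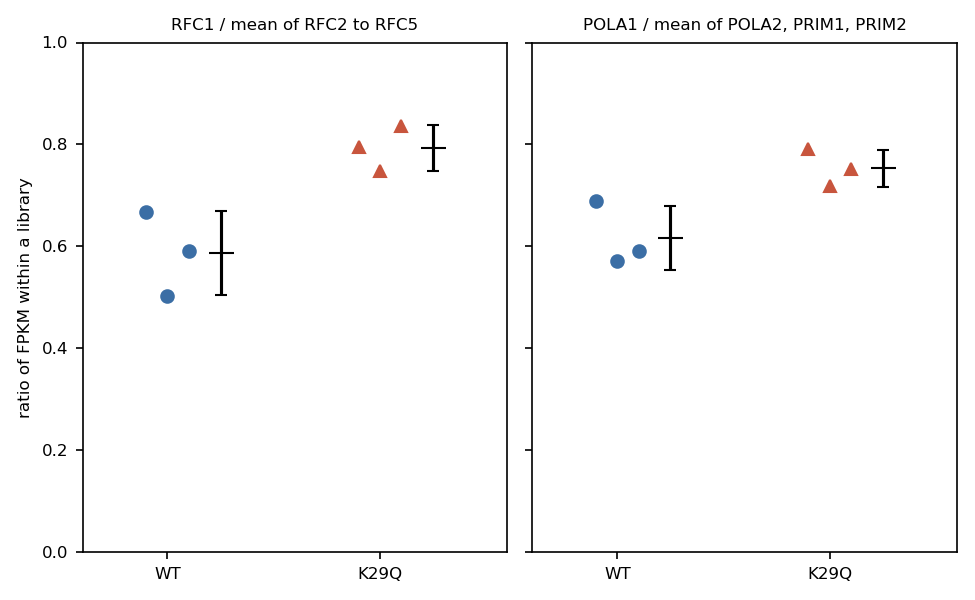
Ratio of FPKM within each library of RFC1 to the mean of RFC2 to RFC5 (left) and of POLA1 to the mean of POLA2, PRIM1 and PRIM2 (right), with 1 point per library and the mean with its SD (n = 3) beside it. The K29Q triangles lie above the WT circles in both panels, with means of 0.793 against 0.587 for RFC1 and 0.753 against 0.617 for POLA1.

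The GC content of the replication set (median 48.1%) was close to that of all genes tested (49.7%), and the set lay below other genes of like GC content. In the class with a GC content over 40% to 50%, 17 of 21 replication genes were below 0 with a median log2 difference of −0.09, against 0.03 for the 4777 genes of that class. In the class over 50% to 60% all 12 were below 0 with a median of −0.08, against −0.04 for 4185 genes.

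The RPA genes and the lagging strand genes were all below 0 by small amounts, where 49% of all genes tested were below 0. RPA2, the middle subunit of the single-strand binding trimer (chromosome 1 from 27891524 to 27914746), had 27.6, 28.1 and 28.3 FPKM in WT and 23.9, 26.3 and 25.6 in K29Q. Each K29Q library was below each WT library, at a log2 difference of −0.14 (SE 0.0605, limma, adjusted p = 0.396). RPA1, the large subunit, had 33.9, 36.4 and 29.3 FPKM in WT and 30.5, 29.8 and 32.7 in K29Q, which overlapped. In flow cell A the log2 difference was −0.26 and in flow cell B 0.05. RPA3, the small subunit, had 7.98 ± 0.279 and 7.46 ± 0.542 FPKM, with log2 differences of −0.18 in flow cell A and 0.03 in flow cell B. FEN1, which trims the flaps of Okazaki fragments, had 51.7, 57.2 and 51.5 FPKM in WT and 46.5, 53.6 and 51.2 in K29Q, and LIG1, which seals them, 11.4 ± 0.262 and 10.9 ± 0.680.

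Nucleotide supply genes were mixed in direction. TYMS, which makes thymidylate (chromosome 18 from 657604 to 673578), had 41.4, 47.0 and 39.0 FPKM in WT and 43.6, 47.1 and 45.1 in K29Q. WT 2 was level with the highest K29Q library, and the log2 difference of 0.09 came from −0.05 in flow cell A and 0.16 in flow cell B. RRM2, the small ribonucleotide reductase subunit whose protein accumulates in S phase, had 34.2, 37.8 and 32.4 FPKM in WT and 29.9, 33.2 and 31.9 in K29Q, a ratio of 0.911 (limma, adjusted p = 0.516). The large subunit RRM1 had 22.8 ± 2.32 and 22.3 ± 0.695 FPKM. Of the E cyclins, CCNE1 had 8.47, 9.14 and 7.87 FPKM in WT and 6.68, 8.24 and 7.49 in K29Q, a ratio of 0.879 with overlapping groups (limma, adjusted p = 0.475). CCNE2 had 2.41 ± 0.395 and 2.16 ± 0.133 FPKM.

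Exons of 12 of the 37 genes overlap those of another tested gene in GENCODE 29, mostly on the opposite strand, and the strand setting of the counting is not given in the sources used here. Their reads cannot then be told apart there. The partners include ENOSF1 (3.47 FPKM) at TYMS, EIF4A2 (32.4) at RFC4, GSE1 (10.1) at GINS2, and NACA (16.1), on the same strand, at PRIM1.

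Replication genes outside the set were split evenly between the directions. Of 75 further genes of the pathway and its control, 74 were tested, 36 were below 0 and 38 above, with a median log2 difference of 0.004, and 0 passed an adjusted p of 0.05 (limma). At an unadjusted p under 0.05, 3 were lower and 2 higher, shares under the 4.89% and 7.65% of all genes tested. The K29Q libraries lay wholly below WT for 10 of the 74 and wholly above for 5, beside 9% and 8.8% of all genes tested. All 6 further polymerase subunits were below 0 (median −0.04), as were 5 of 8 chromatin assembly and maintenance methylation genes (−0.06), while 12 of 17 further licensing and firing genes were above 0 (0.11). After the correction for GC content and length 48 of the 74 were below 0, where 51.5% of all genes were. Their median was −0.04, and the licensing and firing median was −0.02. The lower genes with the smallest p were CDKN1A, the p21 inhibitor of CDK2 and a partner of PCNA (121 ± 5.52 and 106 ± 4.15 FPKM), RNASEH2A, which removes ribonucleotides (39.5 ± 2.27 and 34.1 ± 1.88), and the transcription factors E2F4 (17.5 ± 0.623 and 15.3 ± 0.764) and E2F1 (18.6 ± 1.84 and 16.1 ± 0.959). In these 4 genes each K29Q library was below each WT library, at adjusted p of 0.365 to 0.405 (limma). The higher ones were topoisomerase TOP2A (28.0 ± 6.33 and 39.0 ± 3.72 FPKM), the checkpoint and firing scaffold TOPBP1 (8.28 ± 1.48 and 10.2 ± 0.692), the origin subunit ORC4 (3.61 ± 0.282 and 4.23 ± 0.321) and ATAD5, which unloads PCNA (1.54 ± 0.0696 and 1.86 ± 0.204), all SD with n = 3 each, at adjusted p of 0.365 to 0.421 (limma). The groups did not overlap for ORC4 and ATAD5. They overlapped for TOP2A and TOPBP1, with WT 1 (35.2 and 9.98 FPKM) above K29Q 2 (34.8 and 9.50). After the correction for GC content and length ORC4 was at 0.02 and ATAD5 at −0.002 on the log2 scale.

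Mitosis genes, the later arm of the cell cycle programme, lay mostly above 0. Of 25, 16 were above 0, where 6759 of the 13261 genes tested were. Their median log2 difference was 0.12, and 0 passed an adjusted p of 0.05 (limma). After the correction for GC content and length the median was 0.07, with 10 of the 25 below 0. At an unadjusted p under 0.05, 6 were higher and 0 lower, beside 7.65% and 4.89% of all genes tested. The 6 (CDK1, CENPE, CENPF, KIF11, ASPM and DLGAP5) had GC contents of 35.3% to 40.8%, against a median of 49.7% over all genes tested. Their log2 differences were 0.10 to 0.45 after the correction for GC content and length. ASPM, a spindle pole protein, had 8.05, 5.04 and 5.83 FPKM in WT and 11.2, 8.53 and 11.3 in K29Q, and DLGAP5, a spindle assembly factor, 22.9, 16.8 and 17.9 and 24.9, 23.0 and 26.8. CDC20, the activator of the anaphase-promoting complex, went the other way with 145, 161 and 154 FPKM in WT and 144, 137 and 137 in K29Q, as did the spindle factor TPX2 with 93.2 ± 3.70 and 87.9 ± 4.23 (SD, n = 3 each). The 2 lists also varied differently over the libraries. Relative to the mean of WT, the median of the mitosis genes was 0.15, −0.04 and −0.10 in WT 1 to 3 and 0.04, 0.11 and 0.20 in K29Q 1 to 3, so WT 1 lay among the K29Q libraries. The median of the replication genes was −0.021, 0.043 and −0.051 in WT 1 to 3 and −0.113, −0.055 and −0.080 in K29Q 1 to 3. The groups only just did not overlap at WT 3 and K29Q 2, and the spread within the groups was an SD of 0.0398. The part of cell cycle stage in the differences was not tested.

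**Figure D5:**
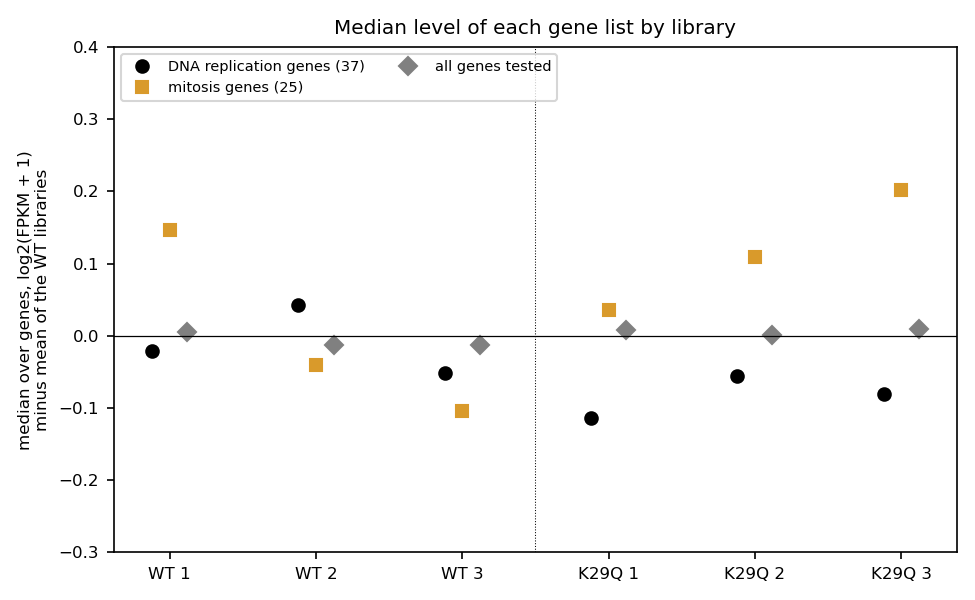
Median over genes of log2(FPKM + 1) minus the mean of the WT libraries, for each of the 6 libraries, for the 37 DNA replication genes (circles), 25 mitosis genes (squares) and all genes tested (diamonds). The replication medians run from 0.043 in WT 2 to −0.113 in K29Q 1, and the mitosis medians from −0.10 in WT 3 to 0.20 in K29Q 3, with WT 1 at 0.15.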

How the data were processed

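RNA of 6 HCT116 libraries was sequenced. The submitters' processing notes name GRCh38, HISAT2 2.1.0 and StringTie. Per the file headers, the deposited table holds FPKM values, 1 per gene in each library. The StringTie version, annotation and strand setting are not stated there. Steps in the FPKM of single-exon genes longer than 600 nt gave the estimated depths, but at most 35.4% of low values were within 0.05 of a whole number of steps, so no counts were recovered. Depth limits the precision of low genes such as CCNE2.

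The 13261 genes that reached 1 FPKM in 3 or more libraries were fitted as log2(FPKM + 1) with limma 3.58.1 in R 4.3.3 (intensity trend, group as the only term, two-sided, Benjamini-Hochberg adjustment, threshold 0.05). The script was tested on simulated data. Differences on this scale understate changes of low genes. GC content and length came from the longest GENCODE 29 transcript, and each library's spline trend on both was subtracted as an alternative. Other alternatives were quantile normalization, median-centring, other filters, a pseudocount of 0.1, a term for the flow cell (inferred from header codes), a replicate block, and leaving out each library. The members and lists were chosen with earlier results of these data known. Values per library are given for the highest gene and the gene with the smallest p of each role, the 8 members with the smallest p in each direction, and, from the other lists, up to 4 (pathway) or 2 (mitosis) in each direction. Subunit ratios and single genes outside this rule were chosen after their values were seen. Protein sequences were not used here.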

Additional observations from a re-analysis of the deposited data

How the results depend on the processing

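The number of genes past an adjusted p of 0.05 over the whole table (7; limma) was 13 with quantile normalization (9 higher, 4 lower), 2 with no filter on low values, 4 with a flow cell term and 83 after the correction for GC content and length (61 higher, 22 lower). With libraries left out in turn it ran from 5 to 20 (20 without WT 1 and 12 without K29Q 1). The median log2 difference of the replication genes was −0.13 within flow cell A, with no test, and −0.11 to −0.06 with libraries left out. In all 18 alternatives it was below 0, and between 26 and 33 genes were below 0. The share of all genes below 0 ran from 47.5% (within flow cell B) to 58.3% (median-centring). With a mean FPKM of at least 5, 33 of the 37 genes were tested, 30 of them below 0, where 55.7% of all genes kept were. The alternatives gave 537 values of 30 named genes. Those within a single flow cell had no test, and 0 of the others passed the adjusted threshold. Of the 537 values, 10, of 5 genes (POLD1, ORC6, TYMS, RPA1 and ATAD5), had the other sign. RFC1 had an adjusted p of 0.074 to 0.745 over its alternatives.

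The replicate numbers did not pair the libraries. Deviations from the group means correlated at −0.14, 0.18 and −0.16 between same-numbered libraries, and K29Q 1 and K29Q 3 correlated best with WT 3 and WT 1. With the replicate number as a block 3 genes passed, and 1 with the block and the correction for GC content and length together. The block left the median of the replication genes at −0.08 with 33 below 0, and at an unadjusted p under 0.05 it left 0 lower and 1 higher, where 3.30% and 6.66% of all genes were.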
